A study of Mus musculus with 12 samples.

Results

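The genes described here are 7 members of the core RAS, RAF, MEK and ERK signalling cascade, chosen by their symbols from the 19910 genes of a mouse bone marrow RNA-seq count table. They are Nras and Hras, which encode RAS GTPases, Araf and Braf, which encode RAF kinases, Map2k1 and Map2k2, which encode MEK1 and MEK2, and Mapk3, which encodes ERK1. All 7 had counts in every library and passed the filter on low counts that left 10993 genes for testing.

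Marrow of C57BL/6J female mice aged 6 to 10 weeks was transduced with a pair of retroviral vectors, and RNA was sequenced in 12 libraries. Both vectors were empty in the first group (empty). The second carried mutant SETBP1 with the D868N change and an empty vector (SETBP1), the third an empty vector and mutant NRAS with the G12D change (NRAS), and the fourth both mutants (SETBP1+NRAS). Each group had 3 libraries, titled as leukemia cells in all 4 groups, controls included, and the labels give no time after transduction. The source of a replicate (mouse, transduction or culture) is not labelled, so p-values measure the spread between these samples, which may be technical. The labels do not name the promoter that drives the inserts, the species of the inserted NRAS sequence, or the share of cells transduced.

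RAS proteins switch between a GDP-bound state that is off and a GTP-bound state that is on. In the GTP-bound state they recruit RAF kinases to the membrane, RAF phosphorylates MEK, and MEK phosphorylates ERK, which acts on cytoplasmic kinases and nuclear transcription factors. The G12D substitution replaces a glycine with aspartate and hinders GTP hydrolysis, so that RAS remains active, and NRAS mutations of this kind are common in myeloid malignancies. Activity of the cascade is set by phosphorylation, which transcript counts do not measure.

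The coding sequences of the RAS pair were compared because this bears on whether reads of one gene could be counted on the other. In the GENCODE M21 reference transcripts, the coding sequences of Nras and Hras are each 570 bases long and held the same base at 428 positions, an identity of 75.1%. The longest run of identical bases was 23, and none of the 546 windows of 25 bases in Nras coding sequence (0) occurred in that of Hras. Only these mouse coding sequences were compared. Reads of the inserted NRAS, whose species is not labelled, and of untranslated sequence are therefore not covered.

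Promoters of the endogenous genes are shown for a RAF gene and a MEK gene, Braf, which was lower for SETBP1 averaged over both backgrounds, and Map2k1, which was higher in both NRAS comparisons. Each run covers 250 bases before to 50 bases after the RefSeq start, on the minus strand, read 5′ to 3′ (GRCm38.p6), with motif matches in capitals.
Braf, chr6:39725414-39725713: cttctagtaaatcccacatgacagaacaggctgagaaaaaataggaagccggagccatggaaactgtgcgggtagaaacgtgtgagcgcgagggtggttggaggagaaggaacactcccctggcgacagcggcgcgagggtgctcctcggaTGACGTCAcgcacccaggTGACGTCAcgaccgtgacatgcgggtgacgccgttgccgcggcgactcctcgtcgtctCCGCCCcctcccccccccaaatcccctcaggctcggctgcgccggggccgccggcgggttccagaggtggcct
Map2k1, chr9:64253556-64253855: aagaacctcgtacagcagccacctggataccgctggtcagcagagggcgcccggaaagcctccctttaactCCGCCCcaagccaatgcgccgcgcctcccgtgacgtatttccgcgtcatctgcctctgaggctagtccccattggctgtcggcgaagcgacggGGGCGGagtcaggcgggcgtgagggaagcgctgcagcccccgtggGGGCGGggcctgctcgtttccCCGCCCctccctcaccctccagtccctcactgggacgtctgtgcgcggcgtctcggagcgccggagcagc
The motifs searched on both strands were the ETS site CCGGAAGT, the AP-1 site TGANTCA, the cyclic AMP response element TGACGTCA, the E-box CACGTG, the GC box GGGCGG and the core of the serum response element. Braf held the cyclic AMP response element 2 times, and 1.79% of the 32851 promoters in the RefSeq table held it. Map2k1 held 4 GC boxes, Nras and Hras 3 each, Map2k2 2, Braf 1 and Araf 0. At least 1 GC box was present in 35.66% of promoters. Of the 7 genes 6 matched the table, Mapk3 being the other, and none of the 6 (0 matches each) held the ETS, AP-1 or serum response letters in this window.

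The libraries held 7085894 to 8864919 counts. Haematopoietic cell genes summed to 2933 to 3369 normalised CPM (CPM, counts scaled to the library total, here after TMM scaling) in all libraries. The 4 globin genes had 0 counts in every group. Setbp1 had 5 to 7 counts in each SETBP1 library, 11 to 17 in each SETBP1+NRAS library and 0 in the others. SETBP1 replicate 3 stood apart: its log2 CPM correlated at 0.932 and 0.939 with the other SETBP1 libraries, against 0.980 to 0.988 for the remaining 10 pairs within groups. The deviation of each library from the mean of the others in its group was correlated with transcript length across 10993 genes. Pearson r was -0.329 for SETBP1 replicate 3, and 0.320 and 0.198 for replicates 1 and 2. The means used for replicates 1 and 2 include replicate 3, so this measure alone does not single it out. Given its lower correlations within the group, calls that rest on SETBP1 libraries were also made without SETBP1 replicate 3. The values without it stand beside those of the members and, together, after those of the other pathway genes. Bulk RNA cannot tell fewer cells of a type from less RNA per cell. Summed neutrophil genes were 11179 to 12606 normalised CPM in empty, 5132 to 7320 in SETBP1, 5864 to 7518 in NRAS and 1985 to 2488 in SETBP1+NRAS, and mast cell and basophil genes were 2996 to 3102, 1624 to 2302, 683 to 1173 and 355 to 537. Monocyte and macrophage genes were 4392 to 4857, 5018 to 6597, 3743 to 4119 and 3708 to 3996 in the same order. Megakaryocyte genes were 221 to 263, 295 to 627, 142 to 203 and 244 to 270, and 4 of 7 fell for NRAS against empty and 5 of 7 for SETBP1+NRAS against SETBP1 (medians -1.65 and -1.50, 0 rose). Stromal and endothelial genes were 102 to 119, 74.8 to 83.5, 183 to 288 and 185 to 204, and the 3 of 10 that passed the filter rose in both of these comparisons (medians 1.96 and 1.95), with Col3a1 and Cxcl12 at 0 in every group. Among all genes 17% rose and 15.5% fell in the first of these comparisons, and 20.9% and 21.5% in the second. The part of these lists in the changes of the cascade genes was not tested.

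**Figure D1:**
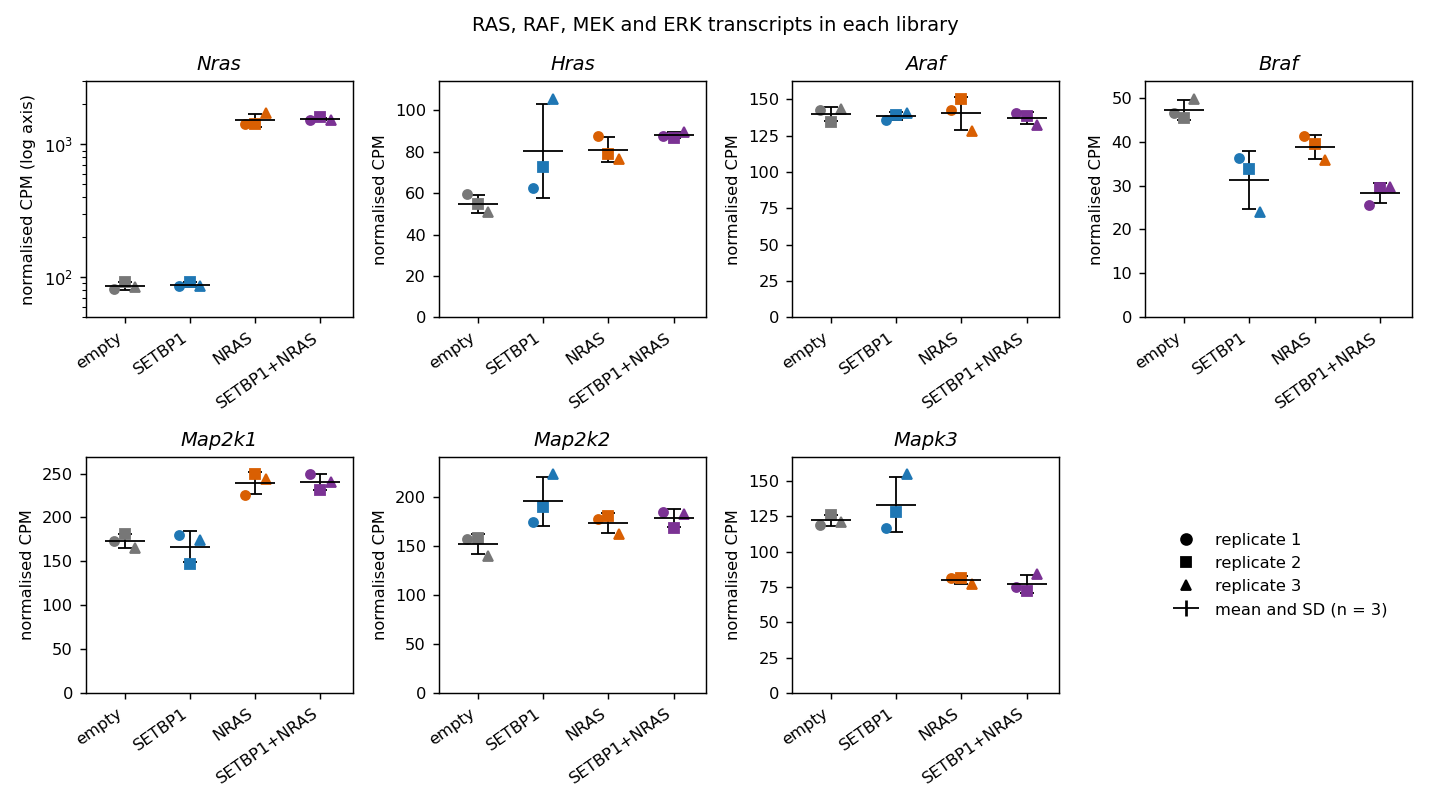
Normalised CPM of the 7 cascade genes in each of 12 libraries (points, shaped by replicate number), with the mean and SD of each group of 3; the axis of Nras is logarithmic and the others start at 0. Nras lies at 1423 to 1712 in the libraries with the NRAS vector and at 82.0 to 93.0 in the others, while Araf lies between 128 and 150 throughout.

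Nras, on chromosome 3 at 103058285 to 103067914 (GRCm38, plus strand, 7 exons in the principal transcript), was the gene most altered among the members. It read 82.0, 93.0 and 84.5 normalised CPM in the empty libraries and 86.7, 92.5 and 85.4 in the SETBP1 libraries. It read 1427, 1423 and 1712 in the NRAS libraries and 1537, 1600 and 1539 in the SETBP1+NRAS libraries. Every library labelled with the NRAS vector was thus far above every library without it, and no library went against its label. The log2 fold change was 4.14 (SE 0.09, edgeR quasi-likelihood adjusted p = 1.95e-12) for NRAS against empty, a 17.6-fold difference, and 4.14 (SE 0.09, adjusted p = 1.90e-12) for SETBP1+NRAS against SETBP1. SETBP1 did not shift it detectably, at 0.03 (95% interval -0.15 to 0.21) without mutant NRAS and 0.04 (-0.14 to 0.21) with it, and the difference between the NRAS changes was 0.01 (-0.24 to 0.26, adjusted p = 0.984). Counts on Nras join the vector's transcript with the endogenous one, and these cannot be told apart here.

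The balance of the RAS pair moved with the vector. Nras supplied 61.2% ± 2.76 (SD, n = 3) of the summed Nras and Hras counts in empty and 52.9% ± 7.20 in SETBP1. In the libraries with mutant NRAS it supplied 94.9% ± 0.779 and 94.7% ± 0.186. These are shares of reads, not corrected for transcript length, and the length of the vector's transcript is not given in the sources used here.

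Hras, on chromosome 7 at 141189105 to 141194005 (minus strand), encodes the RAS isoform that was not transduced. It read 59.4, 54.6 and 50.7 normalised CPM in empty and 87.9, 79.1 and 76.3 in NRAS. The groups did not overlap, and the change was 0.56 on the log2 scale (SE 0.15, edgeR adjusted p = 0.0121), 1.48-fold. This call was lost without empty replicate 3 (0.50, adjusted p = 0.0561) and without NRAS replicate 1 (0.50, adjusted p = 0.0510). In SETBP1 Hras read 62.7, 72.5 and 105.8, the last being replicate 3, and in SETBP1+NRAS 87.6, 86.8 and 89.7. The NRAS change in the presence of SETBP1 was 0.13 (95% interval -0.19 to 0.46, adjusted p = 0.513), and without SETBP1 replicate 3 it was 0.38 and past the threshold (adjusted p = 0.00323). With SETBP1 alone Hras changed by 0.55 (SE 0.15, adjusted p = 0.0300), and by 0.30 without SETBP1 replicate 3 (adjusted p = 0.0468); in the presence of mutant NRAS the SETBP1 change was 0.12 (95% interval -0.21 to 0.44). The call was lost without any 1 of the 3 empty replicates (adjusted p = 0.0684, 0.0716 and 0.122). In CPM of the library total, without TMM scaling, the rise of Hras by 22.1 in NRAS over empty equalled 1.58% of the rise of Nras. On the same scale the 3.86 in SETBP1+NRAS over SETBP1 equalled 0.274%. How reads matching several genes were counted is not given in the sources used here, and a contribution of vector reads to the Hras counts was not tested.

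Of the RAF genes, Araf held one level across the study and Braf did not. Araf, on the X chromosome at 20797814 to 20860519, read 142, 134 and 143 normalised CPM in empty and 136, 139 and 141 in SETBP1. It read 143, 150 and 128 in NRAS and 141, 138 and 132 in SETBP1+NRAS, and the 4 ranges overlapped. None of its changes was detected: for NRAS against empty it was 0.00 (95% interval -0.16 to 0.17, edgeR adjusted p = 0.969) and for SETBP1 against empty -0.01 (-0.17 to 0.15, adjusted p = 0.908).

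Braf, on chromosome 6 at 39603237 to 39725463 (minus strand, 22 exons), encodes the RAF kinase with the highest basal activity of the family. It read 46.5, 45.5 and 49.8 normalised CPM in empty and 36.2, 33.7 and 23.9 in SETBP1, the last being replicate 3. It read 41.2, 39.5 and 35.9 in NRAS and 25.6, 29.4 and 29.7 in SETBP1+NRAS. Every library with mutant SETBP1 was below every empty library, and SETBP1+NRAS was below NRAS with no overlap. For SETBP1 against empty the change was -0.59 (SE 0.14, edgeR adjusted p = 0.0171), and without SETBP1 replicate 3 it was -0.43 (adjusted p = 0.0129). This call was lost without empty replicate 1 (-0.60, adjusted p = 0.0586), without empty replicate 3 (-0.55, adjusted p = 0.0779) and when only the 6 libraries compared were fitted (-0.59, adjusted p = 0.115). For SETBP1+NRAS against NRAS it was -0.46 (SE 0.14, unadjusted p = 0.00679, adjusted p = 0.155), which missed the threshold in the fit of all 12 libraries and passed it without SETBP1 replicate 3 (-0.46, adjusted p = 0.00726), a library outside this comparison that entered the shared estimate of spread. Averaged over backgrounds with and without NRAS, the SETBP1 change of Braf was -0.53 (SE 0.10, adjusted p = 0.00460), and -0.45 without SETBP1 replicate 3 (adjusted p = 3.23e-04).

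Among the 7 genes Braf had the longest principal transcript, of 9728 bases, with a GC content of 42.6%. With the trends on transcript length and GC content removed together in each library, the change for SETBP1 against empty was -0.25 and not past the threshold (adjusted p = 0.170), while the averaged change was -0.31 and past it (adjusted p = 0.0211). The parts of length and of GC content were not tested apart. The same step put the NRAS change of Braf past the threshold in both backgrounds (-0.35, adjusted p = 0.0226, and -0.48, adjusted p = 0.00391). The fit without it gave -0.28 (adjusted p = 0.144) and -0.15 (adjusted p = 0.446). Leaving out SETBP1 replicate 3 instead also put it past the threshold in both (-0.28, edgeR adjusted p = 0.0240, and -0.31, adjusted p = 0.0340). With only the compared libraries fitted it passed for NRAS against empty (-0.29, adjusted p = 0.0204) but not for SETBP1+NRAS against SETBP1. Exons of Braf share 146 bases with Ndufb2 on the opposite strand, and no source used here states that counting used the strand. Ndufb2, a subunit of respiratory complex I, changed by 0.30 for SETBP1 against empty (SE 0.14, edgeR adjusted p = 0.157) and by -0.40 for SETBP1+NRAS against SETBP1 (SE 0.14, adjusted p = 0.0362). Its part in the Braf counts was not tested.

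Of the MEK genes, Map2k1 passed the threshold in both NRAS comparisons and Map2k2 in neither, though the Map2k2 change was also positive for NRAS against empty. Map2k1, on chromosome 9 at 64185770 to 64253631 (minus strand, 11 exons), read 173, 181 and 165 normalised CPM in empty and 225, 249 and 244 in NRAS. It read 179.6, 146.7 and 174.2 in SETBP1 and 249, 232 and 240.4 in SETBP1+NRAS. The 6 libraries with mutant NRAS all lay above the 6 without it. The change was 0.47 (SE 0.08, edgeR adjusted p = 7.02e-04) for NRAS against empty and 0.53 (SE 0.08, adjusted p = 2.11e-04) for SETBP1+NRAS against SETBP1, 1.38-fold and 1.44-fold. Without SETBP1 replicate 3 the second was 0.56. Each call held in 26 of 26 alternative settings in each background. SETBP1 did not alter Map2k1 detectably, at -0.05 (95% interval -0.23 to 0.13) without mutant NRAS and 0.01 (-0.17 to 0.18) with it.

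Map2k2, on chromosome 10 at 81105915 to 81133975 (plus strand, 11 exons), read 157, 157 and 139.8 normalised CPM in empty and 176.8, 180.4 and 161.9 in NRAS. It read 173.7, 189.5 and 222.8 in SETBP1 and 184.5, 167.9 and 182.3 in SETBP1+NRAS. All 9 libraries with a mutant were above the 3 empty libraries. The change was 0.19 (95% interval -0.01 to 0.39, edgeR adjusted p = 0.138) for NRAS against empty and -0.13 (-0.33 to 0.07, adjusted p = 0.277) for SETBP1+NRAS against SETBP1, neither past the threshold. For SETBP1 against empty it was 0.37 (SE 0.09, adjusted p = 0.0222), and without SETBP1 replicate 3 it was 0.26 (adjusted p = 0.0281). The SETBP1 call was lost without empty replicate 1 (0.40, adjusted p = 0.0593), without empty replicate 3 (0.32, adjusted p = 0.105) and with only the 6 compared libraries (0.37, adjusted p = 0.117). Without SETBP1 replicate 3 the change for NRAS against empty was past the threshold too (0.19, edgeR adjusted p = 0.0290), although that library was in neither group. It also passed with only the compared libraries (0.18, adjusted p = 0.0398) and with length and GC trends removed (0.26, adjusted p = 0.0155). With sample quality weights in limma it passed as well (0.21, adjusted p = 0.0106). For SETBP1+NRAS against SETBP1 the lack of a call held in 26 of 26 alternative settings.

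Mapk3 fell with mutant NRAS. It lies on chromosome 7 at 126759601 to 126765819 (plus strand, 9 exons) and encodes ERK1, the kinase at the end of the cascade. It read 119, 126 and 121 normalised CPM in empty and 81.7, 81.4 and 76.8 in NRAS. It read 116.8, 127.9 and 154.8 in SETBP1, the last being replicate 3, and 75.2, 72.3 and 84.2 in SETBP1+NRAS. The libraries with mutant NRAS all lay below those without it. The change was -0.61 (SE 0.10, edgeR adjusted p = 4.42e-04) for NRAS against empty and -0.79 (SE 0.10, adjusted p = 4.14e-05) for SETBP1+NRAS against SETBP1, 1.53-fold and 1.72-fold lower. Without SETBP1 replicate 3 the second was -0.66. Both held in 26 of 26 alternative settings, between -0.70 and -0.54 and between -0.88 and -0.54. SETBP1 changed Mapk3 by 0.13 (95% interval -0.09 to 0.34) without mutant NRAS and -0.05 (-0.27 to 0.17) with it, neither past the threshold.

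**Figure D2:**
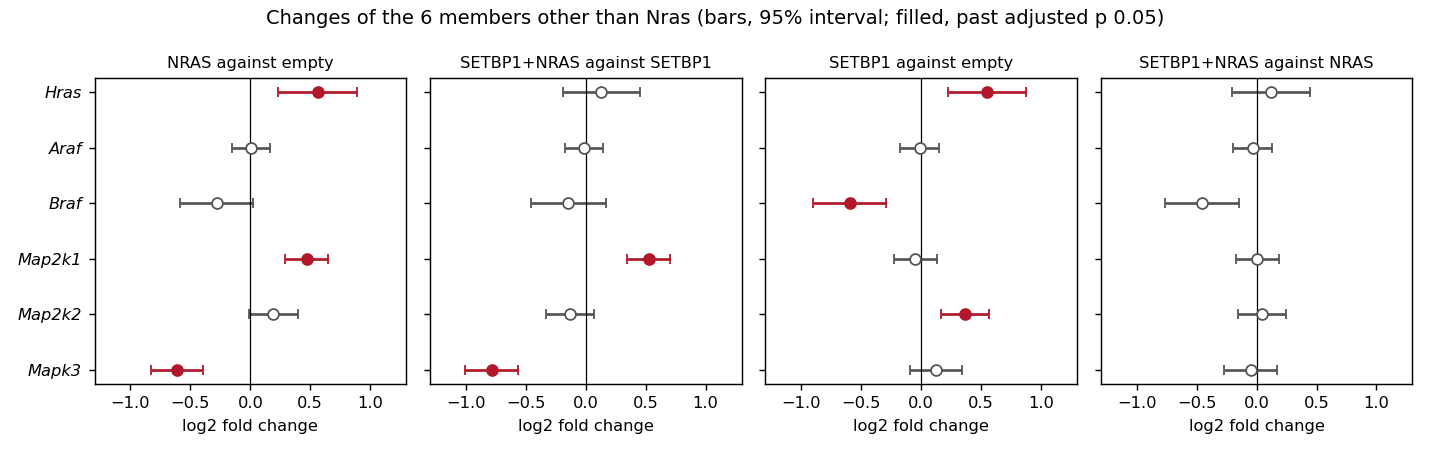
Log2 fold changes of the 6 cascade genes other than Nras in 4 comparisons, with 95% intervals; filled points passed an adjusted p of 0.05 in the edgeR fit. Map2k1 lies to the right and Mapk3 to the left in both comparisons with mutant NRAS, and no point is filled for SETBP1+NRAS against NRAS.

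Counts of members past the threshold were set beside those of all genes. For NRAS against empty 4 of 7 passed, 3 higher and 1 lower, where 32.5% of all genes passed, 17% higher and 15.5% lower. For SETBP1+NRAS against SETBP1 3 passed, 2 higher and 1 lower, against 42.4% of all genes (20.9% higher and 21.5% lower), and without SETBP1 replicate 3 it was 5. In SETBP1 against empty 3 passed, 2 higher and 1 lower, against 14.9% (8.31% higher and 6.55% lower). This last count was 0 without empty replicate 1 and 0 without empty replicate 3, and 0 when only the 6 libraries compared were fitted. In SETBP1+NRAS against empty 5 passed, 3 higher and 2 lower, against 40.6% of all genes (20.8% higher and 19.8% lower). Nras, whose counts include the vector's transcript, is among those passing wherever groups with and without the NRAS vector were compared. It is also among the members without overlap there. Of the 6 other members, 3 passed for NRAS against empty, 2 for SETBP1+NRAS against SETBP1 and 4 for SETBP1+NRAS against empty. Groups of 3 did not overlap for 6 of 7 members in NRAS against empty (56.3% of all genes), 3 in SETBP1+NRAS against SETBP1 (48.8%), 3 in SETBP1 against empty (33.2%), 1 in SETBP1+NRAS against NRAS (25.2%) and 6 in SETBP1+NRAS against empty (61.2%). The comparisons against empty share the same control libraries.

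For SETBP1+NRAS against NRAS no member passed in edgeR (0 of 7, against 1.91% of all genes), and 1 member had an unadjusted p under 0.05, as did 1283 of all genes. No member passed in the test of whether the NRAS change differed with SETBP1 (0 of 7, against 0.0455% of all genes), and again 1 had an unadjusted p under 0.05. That one was Map2k2, whose NRAS change was lower in the presence of SETBP1 (-0.32, SE 0.13, unadjusted p = 0.0292, adjusted p = 0.348). For Hras the difference was -0.43 (adjusted p = 0.423). Averaged over both backgrounds, the NRAS change passed for 4 members (51.7% of all genes), namely Nras, Hras (0.35, adjusted p = 0.0152), Map2k1 (0.50, adjusted p = 9.46e-06) and Mapk3 (-0.70, adjusted p = 2.71e-06). The averaged SETBP1 change passed for Braf alone among the members (1 of 7, against 14% of all genes), and 3 passed without SETBP1 replicate 3, Hras and Map2k2 being added.

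The median change of the 6 members other than Nras was 0.10 for NRAS against empty and -0.07 for SETBP1+NRAS against SETBP1, beside -0.01 and -0.00 over all genes. Their median absolute change was 0.38 and 0.14, beside 0.29 and 0.36 over all genes.

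The ratio of 2 paralogs counted in the same library does not depend on library scaling, so it gives a second view of the RAF and MEK pairs. The log2 ratio of Map2k1 to Map2k2 counts was 0.19 ± 0.05 (SD, n = 3) in empty, -0.23 ± 0.24 in SETBP1, 0.47 ± 0.12 in NRAS and 0.43 ± 0.03 in SETBP1+NRAS. As linear ratios of the means these were 1.14, 0.855, 1.38 and 1.35. Every library with mutant NRAS had a higher ratio than every library without it. The difference with against without NRAS was 0.47 (exact permutation test within SETBP1 backgrounds, two-sided, p = 0.005, the smallest that the 400 arrangements allow; adjusted over 4 ratio tests, p = 0.01). It was 0.28 without mutant SETBP1 and 0.66 with it, and 0.43 in all without SETBP1 replicate 3. The difference with against without SETBP1 was -0.23 (exact permutation p = 0.04, adjusted p = 0.0533), of which -0.42 lay in the background without NRAS and -0.04 in that with it; without SETBP1 replicate 3 it was -0.19 and past the threshold (adjusted p = 0.04).

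The log2 ratio of Araf to Braf counts was 1.57 ± 0.05 in empty, 2.17 ± 0.34 in SETBP1, 1.85 ± 0.07 in NRAS and 2.28 ± 0.16 in SETBP1+NRAS, or 2.96, 4.49, 3.604 and 4.85 as linear ratios of the means. With against without SETBP1 the difference was 0.52 (exact permutation p = 0.005, adjusted p = 0.01), made of 0.60 without mutant NRAS and 0.43 with it. With against without NRAS it was 0.20 (exact permutation p = 0.11, adjusted p = 0.11). Without SETBP1 replicate 3 the NRAS difference was 0.30 and past the threshold (exact permutation, adjusted p = 0.0133). The SETBP1 difference was then 0.42. Library scaling cancels in such a ratio, but trends on transcript length and GC content do not. The principal transcript of Araf has 2358 bases and 55.0% GC, that of Braf 9728 bases and 42.6%. Neither ratio was computed with these trends removed. For Braf itself, their removal took the change for SETBP1 against empty to -0.25 (edgeR adjusted p = 0.170) and the averaged SETBP1 change to -0.31 (adjusted p = 0.0211).

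**Figure D3:**
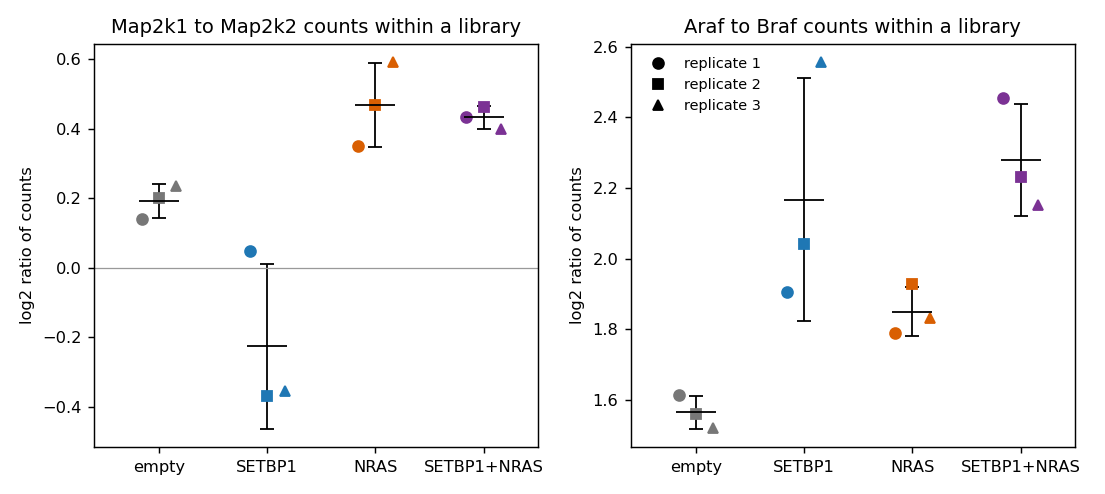
Log2 ratio of Map2k1 to Map2k2 counts and of Araf to Braf counts in each library (points, shaped by replicate number), with the mean and SD of 3 libraries per group; neither axis starts at 0. The MEK ratio lies highest in the NRAS groups, at 0.47 and 0.43, and the RAF ratio in the SETBP1 groups, at 2.17 and 2.28.

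Levels of different genes were compared only per length, in the empty libraries, where no vector adds to Nras. Per kilobase of principal transcript, Map2k1 was at 71.0 ± 3.38 normalised CPM (SD, n = 3), Mapk3 at 67.8 ± 2.05, Map2k2 at 63.0 ± 4.18 and Araf at 59.3 ± 2.08. Hras and Nras followed at 19.4 ± 1.54 and 19.3 ± 1.29, and Braf was lowest at 4.86 ± 0.233. Neighbours among the highest 4 genes, and the RAS pair, differed by less than the sum of their SDs, while the steps to the RAS pair and to Braf exceeded it. The order depends on the gene model: per kilobase of coding sequence Nras came first at 152, ahead of Map2k1 at 146, and Braf was again lowest at 19.6.

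Genes with profiles most like each member were ranked by Pearson's r of log2 CPM over the 12 libraries among 9072 genes, as a description. For Nras, whose libraries fall into a high and a low set, they were Angptl2, Pcdh7 and Gm5416, each at 0.998. For Mapk3 they were Abi3 at 0.996, Maf1 at 0.992 and Pirb at 0.991, and for Map2k1 they were Emp2 at 0.985, Rasal3 at 0.977 and Psmd1 at 0.971. For Hras they were Ntmt1 at 0.976, Idh3a at 0.976 and Mlf2 at 0.973, and for Map2k2 Chid1 at 0.975, Hmox2 at 0.967 and Psma7 at 0.957. For Braf they were Cers6 at 0.954, Dcaf12 at 0.948 and Hip1r at 0.945. Araf, with its narrow range, had Calm3 at 0.816, Fchsd2 at 0.802 and Trmu at 0.727, lower than for the other members.

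RAS activators load RAS with GTP, and adaptors bring them to receptors. Of 16 tested, 0 rose and 7 fell for NRAS against empty (median -0.33, against -0.01 over all genes, of which 17% rose and 15.5% fell). For SETBP1+NRAS against SETBP1 1 rose (Rasgrp3, at 4.66, named after its value was seen) and 4 fell (median -0.06, against -0.00). In that comparison 20.9% of all genes rose and 21.5% fell. Rasgrp3 did not meet both conditions set for named genes, at least 50 counts on average in the higher group and no overlap. Its changes for NRAS against empty (1.24) and SETBP1 against empty (-2.45) did not pass. Rasgrp1, a diacylglycerol-regulated exchange factor for RAS, went from 9.33 ± 1.26 normalised CPM (SD, n = 3) in empty to 3.12 ± 0.592 in NRAS (-1.58, SE 0.33, edgeR adjusted p = 0.00213), and by -1.52 in the presence of SETBP1. Gab3, a docking adaptor, changed by -0.77 for NRAS against empty. Rasgrp4, an exchange factor of myeloid and mast cells, changed by -0.85 for SETBP1+NRAS against SETBP1. The summed mast cell and basophil genes were also lower in these libraries, by the values given above.

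RAS GTPase-activating proteins return RAS to its GDP-bound state. Of 9 tested, 4 rose and 2 fell for NRAS against empty (median 0.52), and 5 rose and 2 fell for SETBP1+NRAS against SETBP1 (median 0.88). Among all genes 17% rose and 15.5% fell in the first comparison, and 20.9% and 21.5% in the second. Rasa2 went from 55.9 ± 2.40 to 87.7 ± 4.50 normalised CPM (0.65, SE 0.11, edgeR adjusted p = 4.20e-04), and from 33.1 ± 4.599 in SETBP1 to 71.6 ± 5.84 in SETBP1+NRAS (1.11, SE 0.11, adjusted p = 4.03e-06). Rasal3, which is found in blood cells, rose by 0.83 for NRAS against empty, and Rasa1 by 0.95 for SETBP1+NRAS against SETBP1. Rasa3 changed by -0.55 for NRAS against empty. Rasa4 was lower in both backgrounds, at -0.54 (a call lost without empty replicate 2 and without NRAS replicate 3) and -1.45. With SETBP1 alone, Rasa4 rose by 0.97 and Rasa2 fell by 0.76, each opposite in sign to its NRAS change. These calls share the empty libraries with the first comparison. They share the SETBP1 libraries, with opposite sign, with the second, so opposite signs there are partly built in. In the presence of mutant NRAS the SETBP1 changes of Rasa4 and Rasa2 were 0.07 and -0.29, neither past the threshold. The Rasa2 call for SETBP1 alone was lost when only the 6 libraries compared were fitted (-0.75, edgeR adjusted p = 0.0530).

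The RAS relatives and the enzymes that place RAS at membranes went in both directions, as did all genes. Of all genes 17% rose and 15.5% fell for NRAS against empty, and 20.9% and 21.5% for SETBP1+NRAS against SETBP1. Among 11 tested relatives, 4 rose and 3 fell in the first comparison, and 3 rose and 3 fell in the second. For SETBP1 against empty and SETBP1+NRAS against NRAS 0 passed in edgeR, where 14.9% and 1.91% of all genes did. Ralb, a GTPase acting below RAS through exchange factors of its own, rose by 0.41 and 0.67. Rras, a relative tied to adhesion, changed by -1.29 and -1.69. Of 13 tested membrane-targeting genes 2 rose and 1 fell, and then 3 rose and 2 fell. Icmt, which methylates the processed RAS terminus, rose by 0.44 and 0.86, the first a call lost without any 1 of the 3 empty replicates or without NRAS replicate 3. Pde6d, which carries prenylated RAS through the cytosol, changed by -0.51 and -0.52; with length and GC trends removed the second was -0.24 and its call was lost (adjusted p = 0.0605).

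Among 20 tested scaffolds and regulators of the cascade, 8 rose and 0 fell for NRAS against empty, and 8 rose and 2 fell (Ppp2cb and Pebp1) for SETBP1+NRAS against SETBP1. Among all genes 17% rose and 15.5% fell in the first comparison, and 20.9% and 21.5% in the second. The calls of Ppp2cb and Pebp1 were lost with only the 6 compared libraries (edgeR adjusted p = 0.0638 and 0.0663). They were also lost without SETBP1+NRAS replicate 1 or 2, that of Pebp1 also without replicate 3. With length and GC trends removed the Ppp2cb call was lost (-0.28, adjusted p = 0.0860), and Pebp1 turned from -0.22 to 0.0713. Pea15a, which binds ERK and holds it in the cytoplasm, rose by 1.19 and 1.10, from 25.2 ± 2.05 to 57.7 ± 2.70 normalised CPM without SETBP1. Hsp90ab1, a chaperone of RAF kinases, rose by 0.54 for NRAS against empty, and Iqgap1, a scaffold that binds MEK and ERK, by 0.93 for SETBP1+NRAS against SETBP1. For SETBP1 against empty 1 rose and 5 fell, where 8.31% and 6.55% of all genes did. Iqgap1 was among those that fell, at -0.57. Its call was lost without empty replicate 3 (-0.52, edgeR adjusted p = 0.0535) and with only the 6 compared libraries (adjusted p = 0.0914). It was also lost with length and GC trends removed (-0.23, adjusted p = 0.104). Of the 4 cascade kinases outside the members, 0 rose and 1 fell for NRAS against empty, and 1 rose and 1 fell for SETBP1+NRAS against SETBP1.

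Below ERK, 6 of 13 tested kinases and transcription factors that ERK activates rose and 1 fell in each of the 2 NRAS comparisons (medians 0.25 and 0.47). Among all genes 17% rose and 15.5% fell for NRAS against empty, and 20.9% and 21.5% for SETBP1+NRAS against SETBP1. Ets2, a transcription factor phosphorylated by ERK, went from 20.4 ± 3.33 normalised CPM in empty to 121 ± 18.8 in NRAS (2.58, SE 0.14, edgeR adjusted p = 1.35e-08) and rose by 2.80 in the presence of SETBP1. Elk3, an ETS factor, rose by 1.27 and 1.75. Ets1 moved the other way, by -1.05 and -1.25, and also with SETBP1, by -1.31 without mutant NRAS and -1.52 with it (adjusted p = 0.00515). The SETBP1 call without mutant NRAS was lost when only the 6 libraries compared were fitted (adjusted p = 0.0638). In SETBP1+NRAS against NRAS, where no member passed, Ets1 and Rps6ka1 were the 2 of these 13 genes that did, beside 1.91% of all genes. The Rps6ka1 call (-0.28, edgeR adjusted p = 0.0450) was lost without any 1 of the 6 libraries compared, or without empty replicate 1 or 3.

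Transcripts known to depend on ERK activity were listed with earlier results of these data known, so their counts and medians are a description. Of 9 tested, 8 rose and 0 fell for NRAS against empty (median 2.53), beside 17% and 15.5% of all genes. For SETBP1+NRAS against SETBP1 8 rose and 0 fell (median 2.69), beside 20.9% and 21.5%, and Spry2 was the one that did not pass. For SETBP1 against empty (median -0.12) and SETBP1+NRAS against NRAS (median 0.25) 0 passed in edgeR, where 14.9% and 1.91% of all genes did. Phlda1 went from 4.76 ± 0.509 normalised CPM in empty to 63.8 ± 2.37 in NRAS (3.75, SE 0.36, edgeR adjusted p = 3.66e-06). Ccnd1, which encodes cyclin D1, went from 11.5 ± 2.19 to 101 ± 5.45 (3.13, SE 0.18, adjusted p = 3.18e-08). Dusp4, a phosphatase of ERK, and Spry4, an inhibitor of RAS signalling, changed by 4.22 and 4.65 for SETBP1+NRAS against SETBP1, from means of 0.502 and 0.320. The size of these folds is thus poorly fixed, and that of Spry4 ran from 4.11 to 6.77 with 1 library left out. In SETBP1 both lay under the level that the low-count filter asks for, so they were tested only through higher values in other groups.

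Values of these genes without SETBP1 replicate 3 kept their direction and their call for each pathway gene named above by rule. For SETBP1+NRAS against SETBP1 the RAS activators Rasgrp1 and Rasgrp4 changed by -1.53 and -0.56, the latter from -0.85. The GTPase-activating proteins Rasa2, Rasa1 and Rasa4 changed by 1.01, 0.84 and -1.37, the GTPases Ralb and Rras by 0.63 and -1.17, and Icmt and Pde6d by 0.84 and -0.35. The scaffolds Pea15a and Iqgap1 changed by 1.28 and 0.79, Ppp2cb and Pebp1 by -0.25 (from -0.56) and -0.17, the ETS factors Ets2, Elk3 and Ets1 by 2.80, 1.57 and -1.44, and Dusp4 and Spry4 by 3.62 and 4.25. For SETBP1 against empty Rasa4 changed by 0.90, Rasa2 by -0.65, Iqgap1 by -0.42 and Ets1 by -1.12. The counts of lists for SETBP1+NRAS against SETBP1 stayed within 1.5 times those given, the RAS relatives having 5 that rose and 4 that fell. For SETBP1 against empty 1 ERK-dependent transcript rose where 0 had, and 2 scaffolds and regulators rose and 4 fell. For SETBP1+NRAS against NRAS 5 of the ERK-activated genes passed where 2 had, 3 higher and 2 lower. Without that library 46.5%, 15.3% and 7.52% of all genes passed in these comparisons, in the order given.

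**Figure D4:**
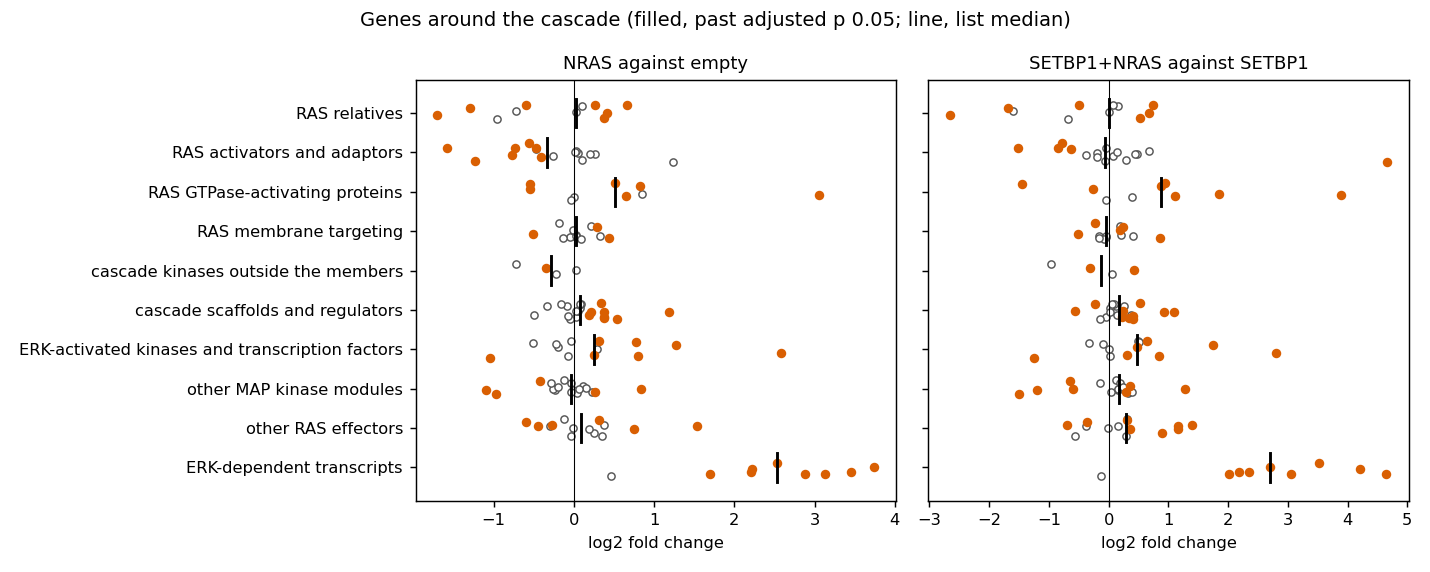
Log2 fold changes of the tested genes of 10 pathway lists around the cascade for NRAS against empty and SETBP1+NRAS against SETBP1; each point is a gene, filled where it passed an adjusted p of 0.05, and each bar is a list median. The ERK-dependent transcripts lie apart at medians of 2.53 and 2.69, and the RAS GTPase-activating proteins have medians of 0.52 and 0.88.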

How the data were processed

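Whole-number counts per gene and library were deposited by the authors in 1 table of 12 libraries; the labels' protocols name a micro-scale column kit for total RNA and a SMART-Seq chemistry for very low input. The submitters' processing notes name STAR, DESeq2 and mm10, without versions or settings; the counting rule and the use of strand are not given in the sources used here. No molecular identifiers are mentioned in the labels, so reads may not be independent molecules.

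Here, edgeR 4.0.16 (R 4.3.3) fitted 4 group means to all 12 libraries with TMM scaling, filterByExpr (minimum count 10, minimum total 15) and quasi-likelihood tests, with Benjamini-Hochberg adjustment over 10993 genes and a threshold of 0.05. The step was tested on simulated data. Of the 19910 genes, 5080 had no count. Ratios of counts (0.5 added) were compared by exact permutation tests with Python 3.11.15. Alternatives used DESeq2 1.42.0, limma 3.58.1, other scalings, filters and sample sets; removal of length and GC trends and sample quality weights were added after the results were seen. Gene models are GENCODE M21 and promoters RefSeq (GRCm38.p6). The genes named beside the members were, for each list, comparison and direction, up to 2 with the largest change among those past the threshold, with at least 50 counts on average in the higher group and no overlap. Other genes were named for where they stand (Ndufb2 at the end of Braf, Setbp1 as the other vector's gene, Spry2 as the one not passing, Rasgrp3 as the one rising). The members and lists were chosen with earlier results of these data known. Some genes and sequences that the rules select are not reported here.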

Additional observations from a re-analysis of the deposited data

How the results depend on the processing

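Of 1427 tests of members under other settings, 1370 kept their direction or lack of a call, 19 lost the call, 38 gained one and 0 reversed. In SETBP1 against empty 0 members passed at an adjusted p under 0.01 and 0 with only the compared libraries, and 0 to 3 with 1 library left out; Hras was also lost without empty replicate 2 (0.55, adjusted p = 0.0716). In SETBP1+NRAS against NRAS 1 member (Braf) passed with only the compared libraries and 1 with sample quality weights, and 0 to 1 with 1 library left out. The averaged SETBP1 change passed for 3 members in DESeq2, 2 with no low-count filter, 3 with length and GC trends removed, 3 with quality weights, and 1 to 3 with 1 library left out. With 1 library left out, 3 to 6 members passed for NRAS against empty, 3 to 5 for SETBP1+NRAS against SETBP1, 5 to 6 for SETBP1+NRAS against empty, 4 to 5 for the averaged NRAS change and 0 to 0 for the difference of the changes. Nras is included in each of these counts except the last. Of the ratio differences under the same step, those of Map2k1 to Map2k2 ranged from 0.43 to 0.54 for NRAS and -0.30 to -0.19 for SETBP1, and those of Araf to Braf from 0.13 to 0.30 and from 0.42 to 0.58. The SETBP1 difference in the MEK ratio passed without SETBP1 replicate 1 (-0.30), SETBP1 replicate 3 (-0.19) or NRAS replicate 1 (-0.26). Pebp1, a RAF inhibitor, reversed for SETBP1+NRAS against SETBP1 with length and GC trends removed, to 0.0713 from -0.22; the cause was not tested.

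No pairing of the samples by replicate number was seen: of 18 same-number pairs across groups 0 had deviations correlated above 0.1 (-0.11 to 0.09). Whether replicates share a mouse or batch cannot be decided from this, as their source is not labelled. With the replicate block the SETBP1 difference in the MEK ratio was -0.23 with an adjusted p of 0.0467, and the Hras call for SETBP1 against empty was lost (0.54, adjusted p = 0.0552); no other member call changed.

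Over the settings, genes past the threshold among all genes numbered 2289 to 5586 for NRAS against empty (3576 as reported), 3043 to 5185 for SETBP1+NRAS against SETBP1 (4661), 110 to 3191 for SETBP1 against empty (1633) and 86 to 1038 for SETBP1+NRAS against NRAS (210). They numbered 3117 to 6270 for SETBP1+NRAS against empty (4462), 4256 to 6668 for the averaged NRAS change (5684), 509 to 2680 for the averaged SETBP1 change (1540) and 1 to 351 for the difference of changes (5). With library size as the only scaling the split was 1379 higher and 2265 lower for NRAS against empty, 1720 and 2888 for SETBP1+NRAS against SETBP1, and 1656 and 2908 for SETBP1+NRAS against empty, where TMM gave 1868 and 1708, 2293 and 2368, and 2282 and 2180; the median gene shifted by -0.10 for NRAS against empty. Each member had at least 183 counts in every library.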

Other observations

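The kinases of the other MAP kinase modules (JNK, p38 and their upstream kinases) went in both directions, as did all genes. Of 18 tested, 2 rose and 3 fell for NRAS against empty, and 3 rose and 4 fell for SETBP1+NRAS against SETBP1. Among all genes 17% rose and 15.5% fell in the first comparison, and 20.9% and 21.5% in the second. For SETBP1 against empty, described below, the shares were 8.31% and 6.55%. Mapk6, which encodes the atypical kinase ERK3, rose from 107 ± 2.49 normalised CPM (SD, n = 3) in empty to 191 ± 17.98 in NRAS (0.84, SE 0.18, edgeR adjusted p = 0.00322) and by 1.29 in the presence of SETBP1. Map2k6, an activator of p38 kinases, changed by -1.09, a call lost without NRAS replicate 2, and by -1.20. Without SETBP1 replicate 3 these changes in the presence of SETBP1 were 1.03 and -1.35. In SETBP1 against empty 0 rose and 3 fell, Mapk14, which encodes p38 alpha, at -0.44 and Map2k4, an activator of JNK, at -0.41 (-0.31 and -0.40 without SETBP1 replicate 3); both calls were lost without empty replicate 3 and when only the compared libraries were fitted, and that of Map2k4 also with length and GC trends removed (-0.20, adjusted p = 0.169).

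Among 14 tested effectors of RAS outside the RAF branch, 3 rose and 3 fell for NRAS against empty, and 6 rose and 2 fell for SETBP1+NRAS against SETBP1. The shares of all genes were 17% and 15.5% in the first comparison, and 20.9% and 21.5% in the second. Rgl1, an exchange factor for RAL GTPases, went from 20.7 ± 4.53 to 60.03 ± 5.21 normalised CPM (1.54, SE 0.18, edgeR adjusted p = 1.83e-05), rose by 1.15 in the presence of SETBP1, and rose by 1.01 for SETBP1 against empty, a call lost when only the compared libraries were fitted. Its relative Rgl2 changed by -0.70 for SETBP1+NRAS against SETBP1. Without SETBP1 replicate 3 the last 2 changes of Rgl1 were 1.35 and 0.82, and that of Rgl2 was -0.66. Pik3cd, the leukocyte catalytic subunit of phosphoinositide 3-kinase, changed by -0.60 for NRAS against empty.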
